A study of Homo sapiens with 6 samples.

Results

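Transcript levels of 10 genes of the transforming growth factor beta (TGF-beta) pathway were examined in human lung fibroblasts: the ligands TGFB1, TGFB2 and TGFB3, the latent TGF-beta binding proteins LTBP1 and LTBP2, the receptors TGFBR1 and TGFBR2, the signal transducer SMAD3, its inhibitor SMAD7, and the induced matrix protein TGFBI. They were chosen by name for their place in the pathway, with earlier results of these data known, and all 10 were found among the 25368 gene symbols measured. The RNA-seq data came from 6 libraries of MRC5 cells, a human embryonic lung fibroblast line that was immortalised with hTERT, in 2 tables of 3 libraries each, with 1 library per condition. In the first table, MRC5 cells carried an adenovirus with the empty vector (control), wild-type JUN (JUN WT), or JUN AA, in which the serines that JNK phosphorylates are replaced by alanine. In the second table, untreated MRC5 cells were compared with induced cancer-associated fibroblasts (iCAFs), made by keeping MRC5 cells for 7 days in medium conditioned by MDA-MB-231 breast cancer cells (CM), and with iCAFs given 1 µM of the JNK inhibitor JNK-IN-8 for 48 hours (iCAFs+JNKi, or "with JNKi"). All 6 libraries are therefore of 1 cell line, and the results hold for that line only.

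TGF-beta ligands are secreted in a latent form, tied by their own propeptide to a latent TGF-beta binding protein that anchors them in the matrix. Once released by integrins, thrombospondin or proteases, the ligand binds TGFBR2, which recruits and phosphorylates TGFBR1. TGFBR1 in turn phosphorylates SMAD2 and SMAD3, which enter the nucleus with SMAD4 and switch on matrix genes and SMAD7, a feedback inhibitor that blocks the receptor. In fibroblasts the pathway is best known for driving contractile, matrix-producing states, including those of cancer-associated fibroblasts. JUN is a subunit of the AP-1 transcription factor, which binds the sequence TGAGTCA as a dimer with FOS proteins and, with ATF proteins, the cyclic-AMP response element TGACGTCA.

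Because the study manipulated JUN, the promoters of the 10 genes were read for these letters on both strands, in RefSeq windows (GRCh38.p14) from 250 bases before to 50 after each annotated start. All 10 genes matched, with 27 windows of 35116 in all. The AP-1 heptamer TGAGTCA stood in 2 of the 27 windows, against 4.95% of all windows: 1 of TGFBR2, beginning 6 bases before the start, and 1 of an alternative SMAD3 start, beginning 56 bases before it. The element TGACGTCA stood in 1 window, of LTBP1, against 1.85% of all windows. Its core ACGTCA, which the full element contains, stood in 3 windows, of TGFB2, TGFB3 and LTBP1, against 7.98% of all. The SMAD palindrome GTCTAGAC was in none of the 27 windows and in 0.202% of all. The 4 windows below are shown because they place these letters next to the start of 2 ligands, of a ligand-binding protein and of the transducer, and the match is in capitals. Each is read on the gene's own strand. A match describes the letters only, since binding was not analysed here.
TGFB2 (chr1:218345235-218345330, plus strand): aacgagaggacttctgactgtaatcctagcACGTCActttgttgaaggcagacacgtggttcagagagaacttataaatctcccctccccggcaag
TGFB3 (chr14:75981996-75982072, minus strand): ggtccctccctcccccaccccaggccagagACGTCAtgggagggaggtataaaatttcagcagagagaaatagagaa
LTBP1 (chr2:32946829-32946926, plus strand): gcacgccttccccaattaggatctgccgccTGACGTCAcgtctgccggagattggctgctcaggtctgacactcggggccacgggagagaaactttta
SMAD3 (chr15:67125656-67125741, plus strand): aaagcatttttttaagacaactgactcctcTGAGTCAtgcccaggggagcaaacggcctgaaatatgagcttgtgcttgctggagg
The TGFB2 and TGFB3 windows also held the TATA-box letters TATAAA, beginning 29 and 30 bases before the start.

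The values are FPKM, fragments per unit of transcript length and of mapped fragments, as the authors computed them. They correct for transcript length, so levels of different genes can be set side by side within a library. FPKM summed to between 494603 and 613184 per library in the first table and between 359944 and 399532 in the second, and the sequencing depth behind them is unknown. The tables were normalised separately and were compared only within themselves. A difference is given as log2(FPKM + 1) of one library minus that of another, genes averaging 1 FPKM or more across the 3 libraries of a table were counted, and a difference of at least 2-fold on that scale is named as such. With 1 library per condition the spread between replicates is unknown, so no difference was tested. All 10 fibroblast markers (among them COL1A1, VIM and PDGFRB) were above 1 FPKM in all 6 libraries, and none of 4 endothelial markers reached 1 FPKM in any. Of 5 epithelial markers, KRT18 was at 9.87 to 36.7 FPKM in every library and 1 more reached 1 FPKM in MRC5, while the defining genes CDH1 and ESRP1 were under 0.1 FPKM in all 6. Of 4 blood markers, the lysosomal gene CD68 was at 31.1 to 85.7 FPKM, highest in JUN WT, and PTPRC and CD3E were under 0.1 FPKM in all 6. The part of other cells in the results was not tested. JUN itself was at 25.5 FPKM in the control, 4543 with JUN WT and 291 with JUN AA, so the amount of JUN and its phosphorylation sites cannot be told apart between those libraries. The CM was collected without serum, MRC5 cells were kept in serum, and whether serum was added back is not given in the sources used here, so tumour-cell factors and serum cannot be told apart between iCAFs and MRC5.

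The ligands were led by TGFB1 in every library. TGFB1, the main ligand of wound repair and fibrosis (chr19:41807492-41859827, minus strand, GRCh37), was at 64.7 FPKM in the control, 54.0 with JUN WT and 59.7 with JUN AA. It was at 29.5 FPKM in MRC5, 47.5 in iCAFs and 54.9 with JNKi. Thus JUN WT and JUN AA were slightly below their control, while iCAFs and iCAFs+JNKi were both above MRC5. The iCAF value was 1.61-fold the MRC5 value, a log2 difference of 0.67 that 3.79% of tested genes exceeded.

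TGFB2, a ligand with its own roles in development and in the matrix of the eye (chr1:218518678-218617961, plus strand), showed the widest relative range of the 3 ligands in the iCAF table. It was at 2.17 FPKM in MRC5, 5.52 in iCAFs and 13.0 with JNKi. Each step was upward: iCAFs were 1.04 above MRC5 on the log2 scale, and iCAFs+JNKi were 1.11 above iCAFs, with 1.82% and 1.87% of tested genes above those values. The iCAFs+JNKi library thus held 6.01 times the TGFB2 FPKM of MRC5. Among the adenovirus libraries TGFB2 went the other way, at 3.41 FPKM in the control, 1.39 with JUN WT and 0.985 with JUN AA. The log2 differences from the control were -0.88 and -1.15. The JUN WT value stood at the 2-fold limit, since with a pseudocount of 0.1 in place of 1 it was -1.23. Of 6050 exon bases of TGFB2, 2072 are shared with the annotated transcripts TGFB2-AS1 (opposite strand) and TGFB2-OT1 (same strand), so its level is uncertain where the counting could not separate them, and the strand setting of the counting is not given in the sources used here.

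TGFB3, the third ligand (chr14:76424440-76449354, minus strand), was the lowest of the 10 genes in all 6 libraries. It was at 0.930 FPKM in the control, 0.590 with JUN WT and 0.306 with JUN AA. In the second table it was at 0.516 FPKM in MRC5, 0.535 in iCAFs and 0.803 with JNKi. Its mean was below 1 FPKM in both tables, so it enters none of the counts below.

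The make-up of the ligand pool differed between libraries. Of the summed FPKM of the 3 ligands, TGFB1 took 91.7% in MRC5, 88.7% in iCAFs and 79.9% with JNKi. TGFB2 took 6.74%, 10.3% and 19.0% in the same order, and the sum itself was 32.2, 53.6 and 68.8 FPKM. In the JUN table the share of TGFB2 ran the other way, at 4.94% in the control, 2.49% with JUN WT and 1.61% with JUN AA. These shares are of transcripts within a library and are not affected by how libraries were scaled to each other.

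**Figure D1:**
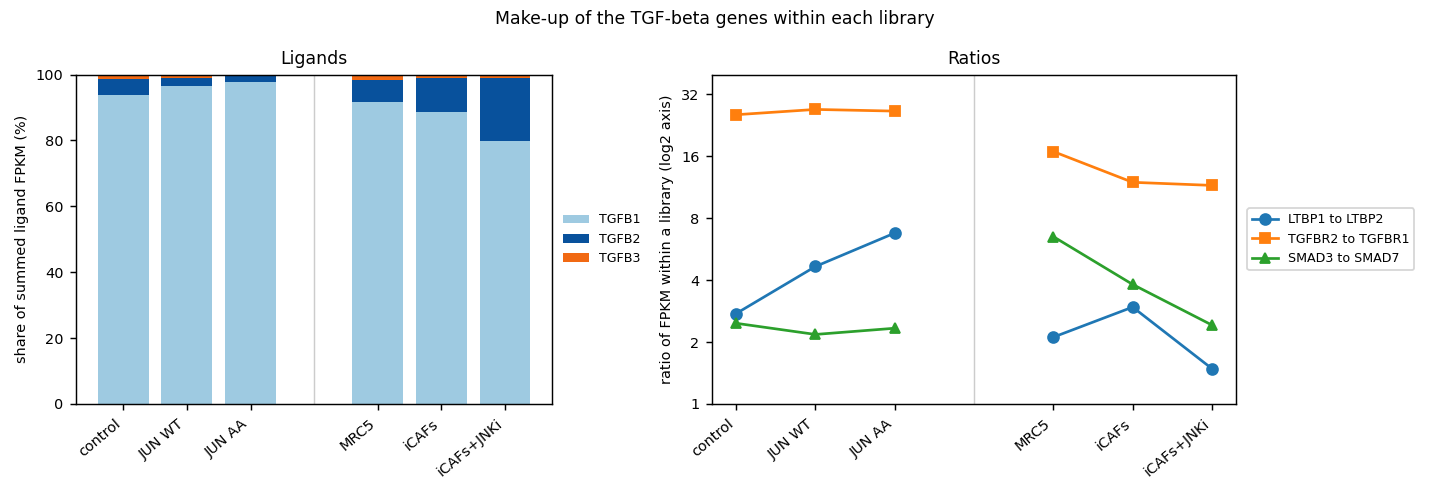
Shares and ratios within each of the 6 libraries: left, stacked bars of the percent of summed ligand FPKM taken by each ligand, and right, on a log2 axis, the ratios of LTBP1 to LTBP2, TGFBR2 to TGFBR1 and SMAD3 to SMAD7 in FPKM. TGFB2's share is 19.0% in iCAFs+JNKi against 6.74% in MRC5, and SMAD3 to SMAD7 is 6.51 in MRC5 against 2.42 in iCAFs+JNKi.

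The latent TGF-beta binding proteins differed from each other. LTBP1, which tethers the latent ligand to the matrix (chr2:33172020-33624576, plus strand), was at 175 FPKM in MRC5, 197 in iCAFs and 177 with JNKi, a narrow range. Among the adenovirus libraries it was at 32.5 FPKM in the control, 49.9 with JUN WT and 28.6 with JUN AA, so that JUN WT was the highest. LTBP2 is the family member that does not bind latent TGF-beta and is known for its part in elastic fibres (chr14:74964886-75079081, minus strand). It was at 11.8 FPKM in the control, 10.7 with JUN WT and 4.23 with JUN AA, and JUN AA stood apart on the low side by -1.29 from the control on the log2 scale. LTBP2 was at 82.7 FPKM in MRC5, 66.5 in iCAFs and 119 with JNKi, where the log2 difference of 0.83 from iCAFs was exceeded by 3.17% of tested genes. The ratio of LTBP1 to LTBP2 was 2.75 in the control, 4.66 with JUN WT and 6.78 with JUN AA, and 2.11, 2.96 and 1.49 in MRC5, iCAFs and iCAFs+JNKi. LTBP1 was thus above LTBP2 in every library.

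Of the receptors, TGFBR2 was the more abundant in every library. TGFBR1, the signalling type I receptor (chr9:101866320-101916474, plus strand), was at 5.28 FPKM in MRC5, 10.5 in iCAFs and 8.54 with JNKi. TGFBR2, the ligand-binding type II receptor (chr3:30648093-30735634, plus strand), was at 89.2, 125 and 98.7 FPKM in the same libraries. Both were highest in iCAFs, and the TGFBR1 log2 difference of 0.87 from MRC5 was exceeded by 2.44% of tested genes. With the adenoviruses TGFBR1 was at 1.19 FPKM in the control, 0.949 with JUN WT and 0.676 with JUN AA, with a mean under 1 FPKM. TGFBR2 stood at 30.3, 25.7 and 17.9 FPKM in those libraries. Both were thus lowest in JUN AA. The ratio of TGFBR2 to TGFBR1 was 25.5, 27.1 and 26.6 in the JUN table, a narrow range, and 16.9 in MRC5 against 12.0 in iCAFs and 11.6 in iCAFs+JNKi.

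SMAD3, the transducer that binds DNA with SMAD4 (chr15:67356101-67487511, plus strand), was at 27.4 FPKM in MRC5, 44.7 in iCAFs and 40.6 with JNKi. Its inhibitor SMAD7, itself a direct target of SMAD3 (chr18:46446223-46477335, minus strand), was at 4.21, 11.7 and 16.8 FPKM. Both were higher in the iCAF libraries, SMAD7 by more, with log2 differences of 0.69 and 1.29 between iCAFs and MRC5. SMAD3 was thus 6.51 times SMAD7 in MRC5, 3.81 times in iCAFs and 2.42 times with JNKi. In the JUN table SMAD3 was at 9.50 FPKM in the control, 6.96 with JUN WT and 5.05 with JUN AA, and SMAD7 was at 3.85, 3.19 and 2.16 FPKM. Both were lowest in JUN AA, and their ratio stayed between 2.18 and 2.47.

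TGFBI, a secreted matrix adhesion protein named for its induction by TGF-beta (chr5:135364677-135399507, plus strand), was the highest of the 10 genes in all 6 libraries. It was at 265 FPKM in MRC5, 905 in iCAFs and 1088 with JNKi. Its log2 difference of 1.77 between iCAFs and MRC5 was the largest of the 10 genes in that comparison, and 0.747% of tested genes exceeded it. It was at 339 FPKM in the control, 426 with JUN WT and 283 with JUN AA, so JUN WT lay above the control and JUN AA below it.

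**Figure D2:**
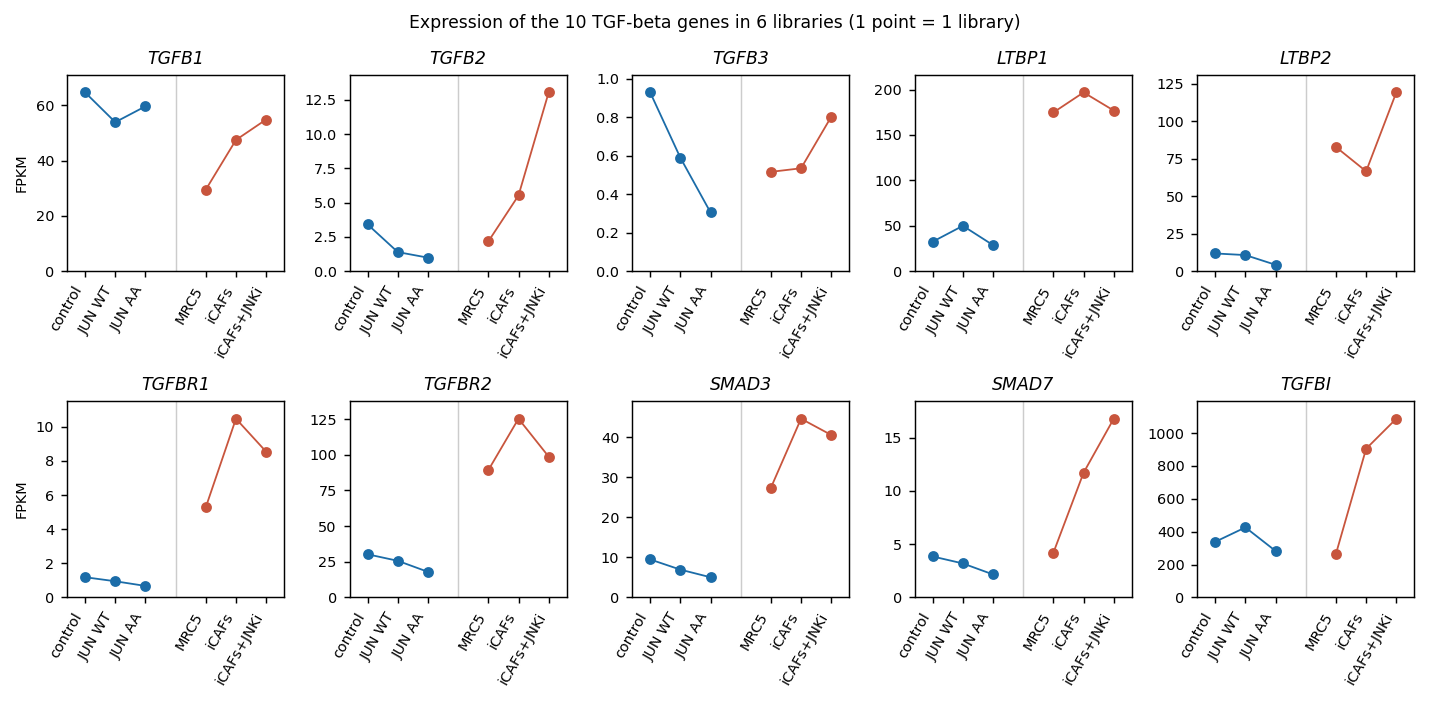
FPKM of the 10 genes (linear axes from 0, each with its own scale) in the 3 adenovirus libraries (blue) and the 3 libraries of MRC5, iCAFs and iCAFs+JNKi (red), 1 point per library, with lines that only guide the eye and no error since each condition has 1 library. TGFBI is highest, from 265 to 1088 FPKM, and TGFB3 lowest, from 0.306 to 0.930 FPKM, and the 2 tables were normalised separately.

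The comparison of iCAFs with MRC5 asked what tumour-cell medium does to fibroblasts. TGFBI (3.41-fold), SMAD7 (2.78-fold) and TGFB2 (2.55-fold) were higher in iCAFs, followed by TGFBR1 (1.98-fold), SMAD3 (1.63-fold) and TGFB1 (1.61-fold). Of the 9 genes counted, 3 were at least 2-fold higher, where 1.94% of the 11780 tested genes were, and 0 were at least 2-fold lower, where 1.71% were. 8 of the 9 were higher, LTBP2 being the exception, while 40.6% of all tested genes were. The median log2 difference was 0.69, against -0.06 over all tested genes.

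The comparison of iCAFs+JNKi with iCAFs asked what the JNK inhibitor does, which the paper used against JUN phosphorylation. Phosphorylation was not measured in these libraries. The JUN transcript itself was also lower with the inhibitor, at 21.1 FPKM against 55.3 in iCAFs and 57.1 in MRC5. The level of JUN, its phosphorylation and any other effect of the inhibitor therefore cannot be told apart here either. TGFB2 was higher with the inhibitor, at 13.0 against 5.52 FPKM, and LTBP2 came next, at 119 against 66.5. Of the 9 genes, 1 was at least 2-fold higher, where 2.25% of tested genes were, and 0 were at least 2-fold lower, where 1.97% were. 5 were higher, where 37.4% of all tested genes were, and 4 lower, where 62.6% were. The 4 were TGFBR1, TGFBR2, LTBP1 and SMAD3, of which SMAD3 turned from -0.13 to 0.0014 with the GC trend removed. The median log2 difference was 0.20, against -0.10 over all tested genes (0.33 against 0.01 after each library was rescaled to the same FPKM sum). Since both comparisons use the same iCAF library, iCAFs+JNKi was also set beside MRC5: TGFBI was at 4.10 times, SMAD7 at 3.99 times and TGFB1 at 1.86 times its MRC5 FPKM, so all 3 stood above MRC5, while LTBP1 was close to it, at 177 against 175 FPKM.

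The comparison of JUN WT with the control asked what more JUN does by itself. LTBP1, at 49.9 against 32.5 FPKM, and TGFBI, at 426 against 339, were higher, and the other 6 genes counted were lower, TGFB2 by most. Of the 8 genes counted, 0 were at least 2-fold higher, where 6.92% of the 10311 tested genes were, and 0 were at least 2-fold lower, where 3.39% were. The median log2 difference was -0.22, against 0.15 over all tested genes, of which 60.9% were higher. In this comparison the difference of a gene ran with its GC content (Spearman's rho across genes -0.39, a description), and the TGFB1 transcript holds 63.6% GC and that of TGFB2 42.2%. With the GC trend removed the TGFB1 difference of -0.26 turned to 0.04, and that of TGFB2 went from -0.88 to -1.30. The median of the 8 genes was then -0.09, with 3 higher and 5 lower. That setting centres the tested genes of each GC bin on their median, so most of the distance from all tested genes was gone.

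In JUN AA all 8 genes were below the control, where 51.4% of all tested genes were. With the GC trend removed, however, LTBP1 (0.04) and TGFBI (0.0032) were not below it. LTBP2, at 4.23 against 11.8 FPKM, and TGFB2, at 0.985 against 3.41, differed most, followed by SMAD3 (5.05 against 9.50) and TGFBR2 (17.9 against 30.3). Of the 8, 0 were at least 2-fold higher, where 5.29% of tested genes were, and 2 were at least 2-fold lower, where 3.77% were. The median log2 difference was -0.67, against -0.02 over all tested genes, and it was -0.52 with the GC trend removed. Rescaling each library to the same FPKM sum moved the median of all tested genes to -0.29 and that of the 8 genes to -0.998, and TGFBR2 (-1.04) and SMAD3 (-1.13) then also passed 2-fold.

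JUN WT set directly against JUN AA gave LTBP2 at 10.7 against 4.23 FPKM, LTBP1 at 49.9 against 28.6 and TGFBI at 426 against 283. Of the 8 genes, 1 was at least 2-fold higher in JUN WT, where 6.65% of tested genes were, and 0 were at least 2-fold lower, where 5.61% were. 7 were higher, where 62.5% of all tested genes were, and TGFB1 was lower. The median was 0.45 against 0.18 over all tested genes (0.75 against 0.47 after rescaling to the same sum). The TGFB1 difference of -0.14 turned to 0.15 after rescaling to the same sum and to 0.01 with the GC trend removed. The LTBP2 value of 1.16 became 0.98, under the 2-fold limit, when centred on the median gene, and the SMAD3 value of 0.40 turned to -0.07 with the GC trend removed.

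**Figure D3:**
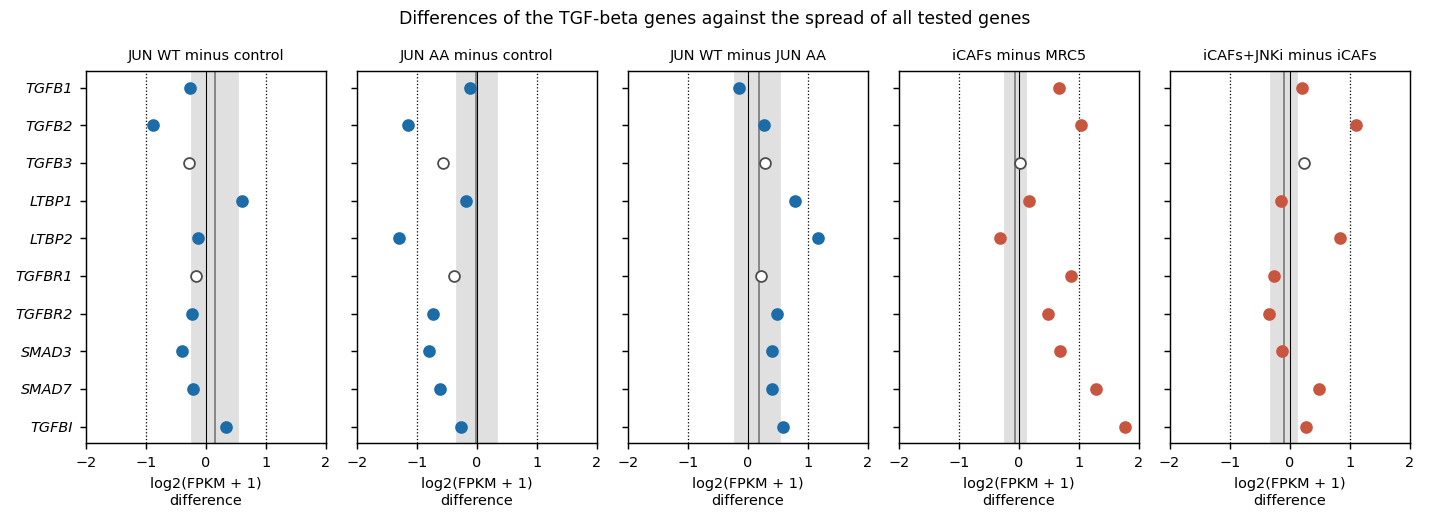
Differences in log2(FPKM + 1) of the 10 genes in the 5 comparisons of 1 library with another, with the median (grey line) and the interquartile range of all tested genes (grey band), dotted lines at a 2-fold difference and open points for genes with a mean under 1 FPKM. TGFBI, SMAD7 and TGFB2 lie beyond 2-fold between iCAFs and MRC5, TGFB2 between iCAFs+JNKi and iCAFs, and LTBP2 and TGFB2 between JUN AA and the control.

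The rest of the pathway was read from lists drawn up by function, and counted among the genes that passed 1 FPKM in the table. The shares of all tested genes given above for each comparison stand beside the counts again. In the comparisons of JUN WT and JUN AA with the control, differences ran with GC content (Spearman's rho -0.39 and -0.32). The GC trend was not removed for any list, so its part in the list values was not tested. For latent storage and presentation (LTBP3, LTBP4, the fibrillins and the latent-ligand carrier LRRC32), 5 of 6 genes were counted. Between iCAFs and MRC5, 1 was at least 2-fold lower (1.71% of all tested genes), LRRC32, at 2.53 against 8.22 FPKM, and none was higher (1.94%). With the inhibitor 2 were at least 2-fold higher (2.25% of all), FBN2 (fibrillin-2) at 54.7 against 13.6 FPKM and LRRC32 at 8.11. In JUN WT 2 were at least 2-fold lower (3.39% of all), LRRC32 and FBN2, the latter at 5.97 against 15.96 FPKM, and in JUN AA none passed 2-fold (5.29% of all higher and 3.77% lower). The list's medians were -0.04 in iCAFs (0.02 when centred on the median gene), 0.32 with the inhibitor, -0.73 with JUN WT and -0.49 with JUN AA.

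Among the activators of latent ligand, 8 of 11 genes were counted. THBS1 (thrombospondin-1), which releases active TGF-beta from its propeptide, was at 274 FPKM in MRC5, 621 in iCAFs and 1527 with JNKi, and it was the single activator at least 2-fold higher between iCAFs and MRC5 (1.94% of all tested genes) and between iCAFs+JNKi and iCAFs (2.25%). None was at least 2-fold lower there (1.71% and 1.97%), and the medians were 0.53 and 0.14. With the inhibitor the count was 2 after rescaling to the same sum or centring on the median gene. All 8 activators were then higher, against 5 before, where 37.4% of all tested genes were. The median of all tested genes was -0.10 before, 0.01 after rescaling and 0 after centring. In the JUN table MMP14, a membrane protease, was at 677 FPKM in the control, 319 with JUN WT and 256 with JUN AA. It was the single activator at least 2-fold lower in JUN WT (3.39% of all), and in JUN AA (3.77%) ITGB5 (integrin beta-5) was so too, at 38.2 against 110 FPKM. After rescaling, 4 activators were at least 2-fold lower in JUN AA, and all 8 were lower. Rescaling also moved the median of all tested genes there from -0.02 to -0.29. The share of all tested genes beyond 2-fold was not computed under these other settings, here or for the other lists. The medians were 0.18 for JUN WT and -0.66 for JUN AA. MMP2, a gelatinase, was at 437 FPKM with JUN WT against 169 with JUN AA and was the single activator to pass 2-fold between them (6.65% of all higher), against 2 after rescaling.

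Of the 4 other receptors and co-receptors, the co-receptor TGFBR3 (betaglycan), at 2.61 FPKM in iCAFs against 6.52 in MRC5, passed 2-fold (1.71% of all tested genes lower), although not when centred on the median gene. The median of the list in iCAFs was -0.37. No other gene of the list passed 2-fold in any comparison on the scale used, while 1 was at least 2-fold lower in JUN AA after rescaling. With the inhibitor TGFBR3 was lower again, at 1.06 against 2.61 FPKM, and passed 2-fold at a pseudocount of 0.1. In the JUN table TGFBR3 averaged under 1 FPKM and was not counted. Of the 6 other SMADs, SMAD1, a transducer of the BMP branch, was at least 2-fold higher in iCAFs (1.94% of all), at 5.03 against 1.96 FPKM, and a second SMAD was so at a pseudocount of 0.1 or after rescaling. With the inhibitor SMAD9, of the same branch, was at 7.80 against 2.61 FPKM, and the inhibitory SMAD6 was also at least 2-fold higher (2.25% of all). None of the other SMADs passed 2-fold in the JUN table. Of the 10 brakes on the pathway, SKIL, a SMAD corepressor, was the single one at least 2-fold higher in iCAFs (1.94% of all), at 6.92 against 2.77 FPKM, against 2 brakes at a pseudocount of 0.1, and none passed 2-fold with the inhibitor. In JUN WT the ubiquitin ligase SMURF2 was at 23.5 against 11.2 FPKM, at the 2-fold limit and under it when centred on the median gene (6.92% of all higher). PMEPA1, which limits SMAD activation, was at 0.668 against 2.54 FPKM there (3.39% of all lower). In JUN AA the corepressor TGIF2 was at 0.305 against 2.14 FPKM (3.77% of all lower), the single brake at least 2-fold lower, against 2 after rescaling. Between JUN WT and JUN AA, TGIF2 was the single brake at least 2-fold higher, at 1.97 against 0.305 FPKM (6.65% of all). That count was 3 at a pseudocount of 0.1 and 4 after rescaling, and 0 brakes were at least 2-fold lower (5.61%).

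TGF-beta-induced genes were the largest list, with 21 of 24 counted in the JUN table and 23 in the other. Between iCAFs and MRC5, 5 were at least 2-fold higher (1.94% of all tested genes), led by IGFBP3, which binds insulin-like growth factors, at 304 against 25.6 FPKM. 1 was at least 2-fold lower (1.71% of all), POSTN (periostin), at 13.6 against 39.6 FPKM, and the list's median was 0.14 against -0.06 over all tested genes. With the inhibitor 7 were at least 2-fold higher (2.25% of all) and 0 lower (1.97%), with a median of 0.78 against -0.10. ELN (elastin) led them at 27.6 against 2.33 FPKM, and POSTN was at 77.3. With ELN at 0.118 FPKM in MRC5, its mean passed the limit of 1 FPKM mainly through the iCAFs+JNKi library. ELN is among the genes at least 2-fold higher in both of these comparisons. In the JUN table ELN was not counted, at 2.01 FPKM in the control, 0.103 with JUN WT and 0.163 with JUN AA. CTGF, the older symbol of CCN2 and a widely used readout of the pathway, was at 116 FPKM in MRC5, 298 in iCAFs and 533 with JNKi.

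In the JUN table the induced genes lay mostly below the control. Differences ran with GC content in both comparisons with the control (Spearman's rho -0.39 for JUN WT and -0.32 for JUN AA). The GC trend was not removed for the lists, so its part in these values was not tested. In JUN WT 1 was at least 2-fold higher (6.92% of all tested genes), the collagen cross-linking enzyme LOX at 160 against 51.1 FPKM, and 6 were at least 2-fold lower (3.39%), led by COL5A1 at 32.4 against 115. The median was -0.57 against 0.15 over all tested genes. In JUN AA 0 were higher (5.29% of all) and 8 lower (3.77%) by 2-fold, led by IGFBP3 at 12.4 against 56.3 FPKM, with a median of -0.82 against -0.02. CTGF was at 93.3 FPKM in the control, 34.8 with JUN WT and 34.3 with JUN AA, so both JUN libraries lay below the control and close to each other. Between JUN WT and JUN AA, POSTN was at least 2-fold lower in JUN WT (42.4 against 91.3 FPKM, where 5.61% of all were), but not after rescaling. The median of the list there, 0.15, turned to -0.04 when centred on the median gene.

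**Figure D4:**
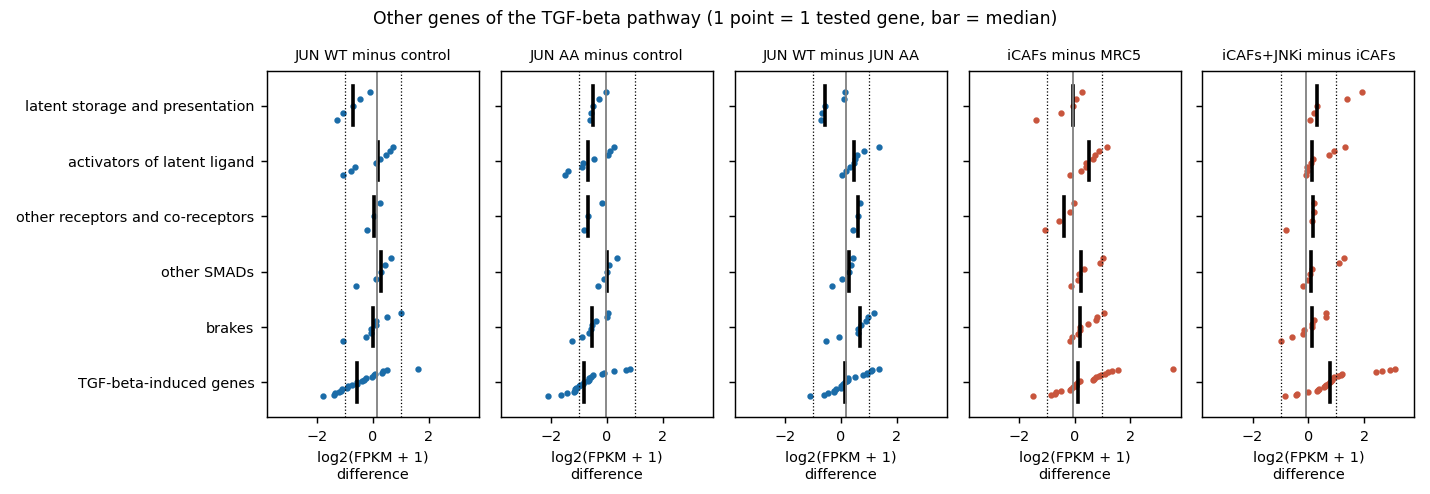
For each pathway list and comparison, the log2(FPKM + 1) difference of every counted gene (points), the list's median (black bar), the median of all tested genes (grey line) and dotted lines at a 2-fold difference. The induced genes have medians of -0.57 in JUN WT, -0.82 in JUN AA and 0.78 with the inhibitor.

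Genes with the pattern most like each ligand were found by the Euclidean distance over 4 log2 differences (JUN WT and JUN AA against the control, iCAFs against MRC5, iCAFs+JNKi against iCAFs), which rest on the 6 libraries. Among 10019 genes, IRF2BP2 (distance 0.168), FSTL3 (0.2496) and ACADVL (0.252) were nearest to TGFB1. SALL1 (0.385), THBS1 (0.391) and GPR37 (0.453) were nearest to TGFB2, so a larger distance held for its nearest genes than for those of TGFB1. CDK2AP2 (0.055), TMEM98 (0.104) and APBB3 (0.117) were nearest to TGFB3, whose levels lay below the pseudocount of 1, where the log2(FPKM + 1) scale compresses differences.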

How the data were processed

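MRC5 RNA was sequenced in 6 libraries, 1 per condition, and groups were taken from the sample labels. Per the labels, the authors aligned reads to hg19 with HISAT2 2.1.0 and computed FPKM with StringTie 2.1.1. The annotation and the strand setting are not given in the sources used here. The deposited FPKM carry no depth, since the low values showed no whole-read steps shared by nearly all genes. Of repeated symbols only the row of highest mean FPKM was used. From FPKM, log2(FPKM + 1) differences were computed (Python 3.11.15, pandas 2.3.3) between libraries of 1 table, with a mean of at least 1 FPKM over its libraries and a 2-fold limit, and the scripts were tested on simulated data. No test was run, because no error can be estimated from 1 library per condition.

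The 10 genes and the lists were chosen with earlier results of these data known. Named were the 10 genes, the 2-fold gene with the largest rise and fall per list and comparison, the 3 genes nearest to each ligand, and JUN. LRRC32 and POSTN with the inhibitor, SMAD6, LRRC32 in JUN WT, MMP14 in JUN WT beside JUN AA, and CTGF were named after their values were seen. For the induced genes, those above JUN AA in JUN WT are not reported here. CCN2 was found under its older symbol CTGF. Gene positions are from GENCODE on GRCh37, and promoters from RefSeq on GRCh38.p14. Alternatives were a pseudocount of 0.1, rescaling FPKM to a sum of 1000000, centring on the median gene, no filter, a filter of 5 FPKM and, added after seeing the data, removal of the GC trend in 20 bins. For the lists, the other filters and the removal of the GC trend were not run.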

Additional observations from a re-analysis of the deposited data

How the results depend on the processing

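Between iCAFs and MRC5 and between iCAFs+JNKi and iCAFs, the counts of genes at least 2-fold higher or lower and the medians moved by less than 1.5 times and 0.25 under all 6 alternatives. In JUN WT against the control, the count of genes at least 2-fold lower went from 0 to 1 (TGFB2) with a pseudocount of 0.1, after rescaling, after centring and with the GC trend removed. In JUN AA against the control, the count lower went from 2 to 4 after rescaling, with a median of -0.998, and to 1 with a filter of 5 FPKM, which leaves TGFB2 out. In JUN WT against JUN AA, the count higher went from 1 to 2 after rescaling and 0 after centring, and the median of 0.45 went to 0.75 after rescaling and 0.15 with the GC trend removed. The cause was not tested. Of single differences of the 10 genes, 19 of 50 moved by more than 0.25 after rescaling, 8 of 50 with the other pseudocount and 9 of 42 with the GC trend removed, and SMAD3 with the inhibitor turned from -0.13 to 0.0014 with the GC trend removed. No paired analysis was possible because each condition has 1 library. The depth is unknown, so the precision of low values such as TGFB3 cannot be given.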
